A study of Mus musculus with 8 samples.

Results

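The genes described here are 10 regulators of the G1 phase of the cell cycle and of the exit from quiescence: the D-type cyclins Ccnd1, Ccnd2 and Ccnd3, their kinase partners Cdk4 and Cdk6, the pocket protein Rb1, the cyclin-dependent kinase (CDK) inhibitors Cdkn1b, Cdkn1c and Cdkn2c, and the signalling inhibitor Spry1. They were taken by name, without regard to their values, from the 18877 gene symbols measured by RNA-seq in activated muscle stem cells (ASCs), and all 10 were in the table. The ASCs came from 4 wild-type and 4 mfn2-/- libraries. Mice of both genotypes carried the mito-Dendra2 reporter and the tamoxifen-inducible Pax7-Cre(ERT2) driver, which acts in muscle stem cells, and the mfn2-/- mice also carried floxed Mfn2, the gene of mitofusin 2, a fusion protein of the outer mitochondrial membrane. All received tamoxifen at 75 mg/kg daily for 5 days, then an injection of 50 uL of 1.2% BaCl2, which destroys myofibres, into the tibialis anterior muscle. Living cells that were Dendra2-positive and CD34-negative were sorted 2 days post injury. Age, sex and any pooling of mice are not given in the sources used here, so the p-values measure the spread between these libraries.

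Muscle stem cells rest outside the cell cycle until injury. On activation, mitogens induce D-type cyclins, which bind CDK4 or CDK6, and these kinases phosphorylate the retinoblastoma protein so that E2F factors are released and S-phase genes are transcribed. CDK inhibitors of the Cip/Kip family (p21, p27, p57) and of the INK4 family (such as p18) oppose this step, and Sprouty1 dampens receptor tyrosine kinase signalling and is needed for a return to quiescence in muscle stem cells.

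Values are normalized reads, the deposited counts scaled by the authors to 1 size factor per library, and they are listed in the order of replicates 1 to 4 and summarised as mean ± SD (n = 4 per group). Changes are differences of log2(normalized reads + 1), mfn2-/- minus wild-type, which understate the change of weak genes. They were tested with limma, and a gene was called when its Benjamini-Hochberg adjusted p over all 11754 genes tested was under 0.05. Libraries held 1880464 to 7508215 reads, with the smallest in wild-type replicate 1 and the next in mfn2-/- replicate 4, in which the fewest genes were detected (9646) and 6.03% of normalized reads fell on the small nuclear RNA 7SK. The targeted gene itself, Mfn2, gave 243, 245, 202 and 228 normalized reads in wild-type and 104, 118, 172 and 109.95 in mfn2-/- libraries. The groups did not overlap (exact permutation p = 0.0286, the smallest that 4 against 4 libraries can give), but the log2 change of -0.88 (SE 0.30) had a limma adjusted p of 0.0848. Reads summed over the whole gene do not show whether the floxed part was missing from the remaining transcript.

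A further split of the libraries cut across genotype. Reads from 4 Y-linked genes numbered 807 to 2336 in wild-type replicates 3 and 4 and in replicates 1 and 2 of mfn2-/-, and the other 4 libraries held 0. Each genotype thus had 2 libraries of each class, and within a genotype the class coincides with the pair of replicate numbers, so that sex-linked expression and any other difference between the pairs cannot be told apart. Beyond the class, marker genes of other cell types differed by genotype. Of 7 fibroadipogenic markers 6 were called lower, and the sum of the 7 was 171926 to 238672 normalized reads in wild-type libraries and 1024 to 3036 in mfn2-/- libraries. The exception, Ly6a, was weak and went the other way, from a mean of 11.6 to 34.4 (log2 change 2.08, limma adjusted p 0.309). All 5 tenocyte markers were called lower (33941 to 53626 against 299 to 404). Pdgfra was at 0 in mfn2-/- replicate 4, Lum in replicates 1 and 4, and Tnmd in replicates 3 and 4. Muscle stem cell markers were present in every library (3516 to 5103 against 5712 to 6630), with Myod1 and Vcam1 of the 6 called higher. Itga7 went the other way, from a mean of 1249 to 621 (log2 change -0.87, limma adjusted p 0.110). Pax7, Myf5 and Cdh15 had log2 changes of 0.10, 0.07 and 0.43 and were not called. Mural markers summed to 3401 to 4331 and 1952 to 3171, with 2 of 5 called lower, and myofibre markers to 1487 to 2297 and 2996 to 4134, with 2 of 4 called higher. None of the endothelial, macrophage or Schwann markers tested was called in limma, edgeR or DESeq2, and 0 had an unadjusted limma p under 0.05. The part of these other cell types in the results below was not tested, and in bulk RNA fewer cells of a type and less RNA per cell cannot be told apart.

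Among the 10 G1 regulators, 2 were called and both were lower in mfn2-/- ASCs: the cyclin Ccnd2 and the inhibitor Cdkn1c (p57). Over all genes 10.4% were called in either direction, 6.36% lower and 3.99% higher. The other 8 members were not called. The log2 change was negative for 9 members and positive for Cdkn1b alone, where 55.8% of all genes tested had a negative change, and the median change of the members was -0.78 against -0.16 over all genes. For 5 of the 10 the unadjusted limma p was under 0.05, as it was for 24.8% of all genes. The values of the 2 genotypes did not overlap for 1 member, Ccnd2, against 19.5% of all genes. Summed over the 10 members, normalized reads were 3491, 3096, 6109 and 5428 in wild-type and 2298, 2091, 2251 and 2281 in mfn2-/- libraries. The wild-type sum thus varied between the library pairs, while the mfn2-/- sums lay close together and below each wild-type sum. These sums include the called members Ccnd2 and Cdkn1c, so they do not show a fall of the other members.

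**Figure D1:**
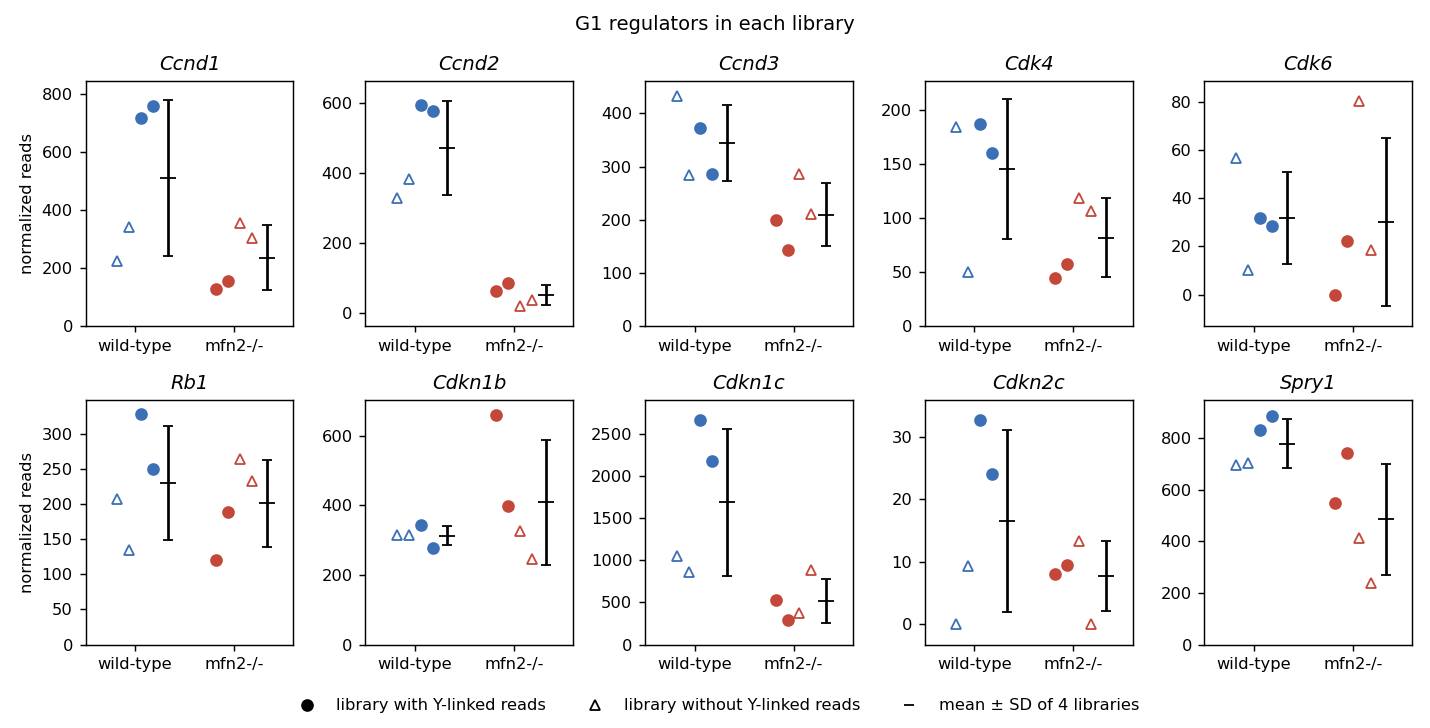
Normalized reads of each G1 regulator (vertical axes, linear) in 4 wild-type (blue) and 4 mfn2-/- (red) libraries, with filled circles for libraries with Y-linked reads, open triangles for those without, and the mean ± SD in black. Ccnd2 is the panel without overlap, and for Ccnd1 the 2 classes stand in opposite order in the 2 genotypes.

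**Figure D2:**
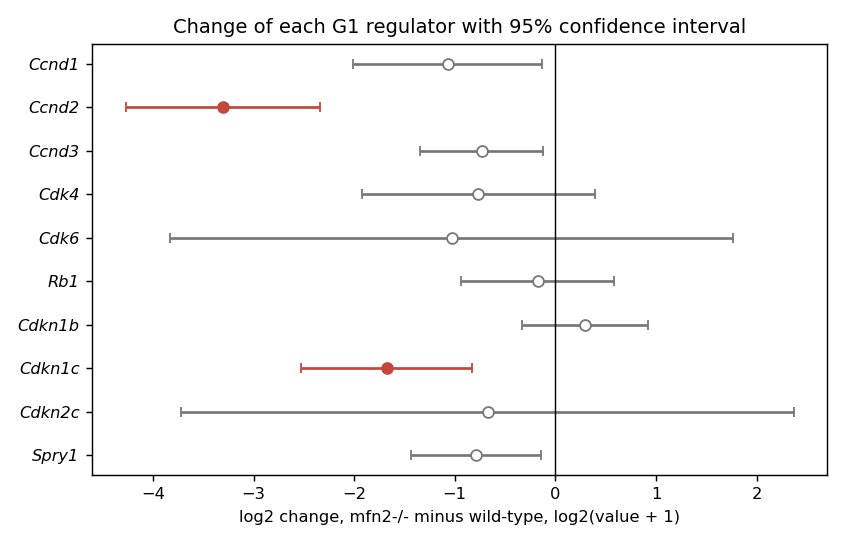
Log2 change of each G1 regulator, mfn2-/- minus wild-type, on the log2(value + 1) scale with its 95% confidence interval from limma (4 libraries per group). Filled red points, Ccnd2 and Cdkn1c, passed the threshold, and the intervals of Cdk6 and Cdkn2c are the widest.

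Ccnd2 (ENSMUSG00000000184.12, GRCm38 chr6:127125162-127152193, minus strand) encodes cyclin D2, an early-response D-type cyclin. It gave 327, 384, 593 and 576 normalized reads in wild-type and 63.3, 85.3, 20.6 and 36.7 in mfn2-/- libraries. Every mfn2-/- library lay far below every wild-type library, and 95, 108, 28 and 20 actual reads stood behind the mfn2-/- values. The means were 470.0 ± 134 and 51.5 ± 28.6, so that Ccnd2 was 9.13-fold lower in mfn2-/- ASCs. The log2 change was -3.31 (SE 0.45, 95% confidence interval -4.27 to -2.34, limma adjusted p 0.000474), and the exact permutation test gave p = 0.0286. It was lower in both classes of library, with log2 changes of -2.97 where Y-linked reads were present and -3.64 where they were not. The call was made in all 20 alternatives computed. An antisense transcript annotated across the locus, 9330179D12Rik, had a mean of 0.98 normalized reads in wild-type libraries and was listed at 0 in mfn2-/- libraries.

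Ccnd1 (ENSMUSG00000070348.5, chr7:144929931-144939925, minus strand) encodes cyclin D1, the D-type cyclin most directly driven by mitogen signalling. It gave 223, 343, 719 and 760.2 normalized reads in wild-type libraries and 126, 156, 355 and 304 in mfn2-/- libraries. The groups overlapped, since wild-type replicates 1 and 2 lay below the highest mfn2-/- library, replicate 3. Means were 511 ± 269 and 235 ± 112, with a log2 change of -1.07 (SE 0.43, 95% interval -2.01 to -0.14) and a limma adjusted p of 0.142. The gene was called in 2 of 20 alternatives. With library weights the change was -1.90 (adjusted p 5.6e-05), and with replicate number as a block it stayed at -1.07 (adjusted p 0.0256).

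Ccnd3 (ENSMUSG00000034165.16, chr17:47505051-47599691, plus strand) encodes cyclin D3, which is retained in differentiating muscle cells. Its values were 432, 284, 372 and 287 in wild-type and 199, 143, 286 and 211 in mfn2-/- libraries. Only mfn2-/- replicate 3 reached the wild-type range. The means of 344 ± 71.7 and 209.8 ± 58.8 differed by a log2 change of -0.73 (SE 0.28, 95% interval -1.34 to -0.12), which limma did not call (adjusted p 0.127) except with library weights (-0.90, adjusted p 0.00654). A gene on the opposite strand, Bysl, overlaps Ccnd3 and had a log2 change of 0.44 (limma adjusted p 0.587). RefSeq also lists a pseudogene, Ccnd3-ps, whose reads may not be separable from those of Ccnd3.

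Levels of different genes were compared per kb of merged exon. The merged exons of all annotated transcripts can be longer than the transcript present, so the order of genes depends on these lengths. They were 4.71 kb for Ccnd1, 9.41 kb for Ccnd2 and 8.78 kb for Ccnd3. In wild-type ASCs Ccnd1 stood at 109, Ccnd2 at 49.95 and Ccnd3 at 39.2 normalized reads per kb, and in mfn2-/- ASCs at 49.96, 5.47 and 23.9. On this scale, Ccnd2 was by group means the middle of the D-type cyclins in wild-type and the lowest in mfn2-/-. In wild-type replicate 1 it was already the lowest, at 26.5% of their sum against 36.0% for Ccnd1 and 37.5% for Ccnd3. In individual libraries the Ccnd2 share of the summed D-type cyclin level was 24.0 to 27.9% in wild-type, a narrow range, and 1.99 to 15.5% in mfn2-/-. The summed level itself was 131 to 258 normalized reads per kb in wild-type and 56.2 to 110.2 in mfn2-/- libraries, without overlap. This sum includes Ccnd2, which did not overlap on its own. The groups overlapped for Ccnd1 and for Ccnd3, and neither was called, so the sum does not show a fall beyond Ccnd2.

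**Figure D3:**
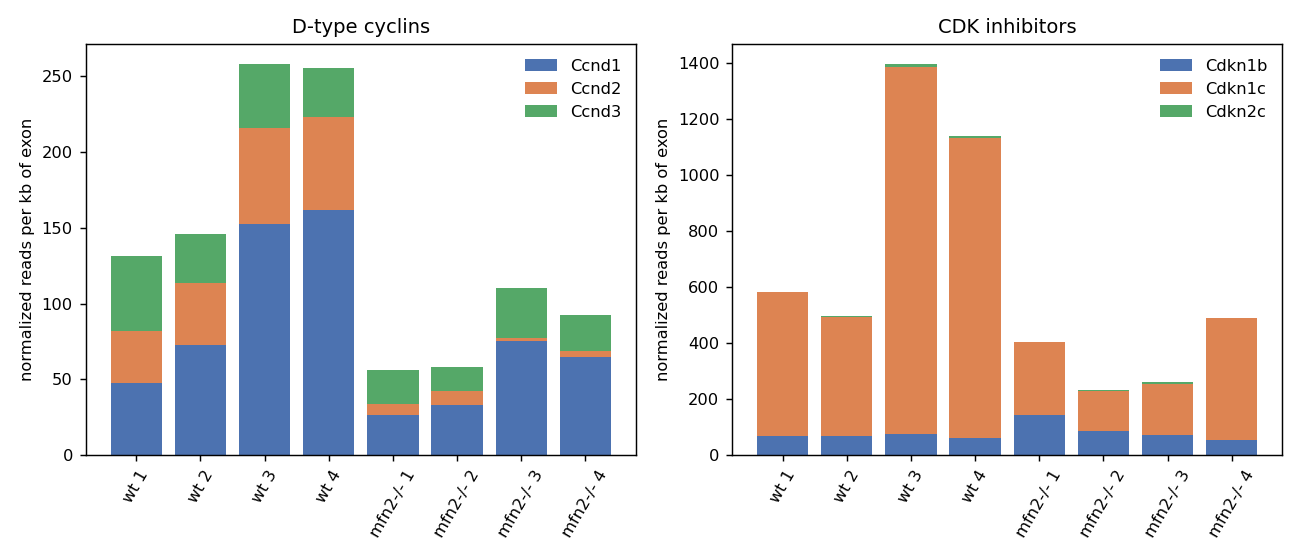
Normalized reads per kb of merged exon (vertical axes) of the D-type cyclins (left) and of the CDK inhibitors among the members (right), stacked in each of 4 wild-type (wt) and 4 mfn2-/- libraries. The Ccnd2 segment is 24.0 to 27.9% of each wild-type bar and 1.99 to 15.5% of each mfn2-/- bar, and Cdkn1c forms the largest segment of every inhibitor bar.

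The kinase partners were measured less precisely. Cdk4 (ENSMUSG00000006728.12, chr10:127063534-127067920, plus strand) stood at 44.7 normalized reads per kb in wild-type and 25.1 in mfn2-/-, above Cdk6 in both. It gave 184, 49.8, 187 and 159.7 normalized reads in wild-type and 44.0, 57.7, 119 and 106 in mfn2-/- libraries. The lowest wild-type library lay within the mfn2-/- range. The log2 change of -0.77 (SE 0.54, 95% interval -1.93 to 0.39) was not called by limma (adjusted p 0.412). It was -1.22 without the low wild-type replicate 2 (adjusted p 0.145), and with library weights -1.29, which passed (0.0142). The opposite-strand gene Tspan31 overlaps Cdk4, and its log2 change was -0.41 (limma adjusted p 0.678).

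Cdk6 (ENSMUSG00000040274.11, chr5:3341485-3531008, plus strand), the alternative partner of the D-type cyclins, was at 2.28 and 2.16 normalized reads per kb in wild-type and mfn2-/- ASCs. Its values were 56.9, 10.4, 31.85 and 28.3 in wild-type and 0, 22.1, 80.3 and 18.3 in mfn2-/- libraries, with no ordering by genotype. The log2 change was -1.03 with an SE of 1.30 (95% interval -3.83 to 1.77, limma adjusted p 0.668). Its sign rested on the library listed at 0, mfn2-/- replicate 1, and was 0.23 without it.

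Of the 6 members with a RefSeq promoter sequence, Cdk4 is shown because its start region held several copies of CACGTG, the E-box letters known to be bound by MYC. The bases just before its start are printed 5′ to 3′ (GRCm38.p6, chr10:127063285-127063533, plus strand), with CACGTG in capitals.

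Cdk4: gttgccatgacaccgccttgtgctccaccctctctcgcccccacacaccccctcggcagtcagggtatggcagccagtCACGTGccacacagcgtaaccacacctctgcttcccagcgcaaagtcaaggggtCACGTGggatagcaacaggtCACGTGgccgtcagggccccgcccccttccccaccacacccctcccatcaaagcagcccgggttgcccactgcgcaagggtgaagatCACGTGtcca

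CACGTG, which reads the same on both strands, occurred 4 times in this window. Of 32851 RefSeq promoter windows of the same length, 6.0% held it at least once and 20 (0.0609%) held 3 or more. Cdk6 had 1 occurrence, and the windows of Spry1, Cdkn2c, Cdkn1b and Ccnd3 had 0. Myc transcript was at 830, 772, 194 and 261 normalized reads in wild-type libraries and 593, 605, 978 and 979 in mfn2-/- libraries, with a log2 change of 0.85 (limma adjusted p 0.238). Its groups overlapped, since wild-type replicates 1 and 2 lay within the mfn2-/- range.

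Rb1 (ENSMUSG00000022105.6, chr14:73183673-73325822, minus strand) encodes the pocket protein that holds E2F factors inactive. It gave 207, 135, 328 and 250.0 normalized reads in wild-type libraries and 121, 189, 264 and 233 in mfn2-/- libraries, so that the groups overlapped over most of their range. The log2 change was -0.18 (SE 0.35, 95% interval -0.94 to 0.58, limma adjusted p 0.799), an interval that includes changes of either sign. The overlapping opposite-strand genes Rcbtb2 and Lpar6 had log2 changes of -0.92 and -0.56, neither of which was called.

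Cdkn1c (ENSMUSG00000037664.13, chr7:143458339-143461050, minus strand) encodes p57, a Cip/Kip inhibitor associated with cell cycle exit during muscle differentiation. It gave 1048, 863, 2672 and 2182 normalized reads in wild-type libraries and 525, 288, 374 and 889 in mfn2-/- libraries. Of the 4 mfn2-/- libraries 3 lay below the lowest wild-type library, and replicate 4, at 889, lay above wild-type replicate 2. The means of 1691 ± 876 and 519 ± 265 made Cdkn1c 3.26-fold lower in mfn2-/- ASCs. The log2 change was -1.68 (SE 0.39, 95% interval -2.52 to -0.83, limma adjusted p 0.0161), while the exact permutation test gave p = 0.0571. The call passed in 16 of 20 alternatives: the adjusted p was 0.111 when no intensity trend was fitted, and on leaving out wild-type replicate 3 (log2 change -1.40), wild-type replicate 4 (-1.50) or mfn2-/- replicate 3 (-1.56) it was 0.0561, 0.0532 and 0.0504.

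Cdkn1b (ENSMUSG00000003031.14, chr6:134920401-134925513, plus strand) encodes p27, the Cip/Kip inhibitor that marks slowly dividing muscle stem cells. Its values were 316, 314, 344 and 276 in wild-type, a tight group, and 661, 399, 327 and 247 in mfn2-/- libraries, which spread to both sides of it. Its log2 change was 0.29 (SE 0.29, 95% interval -0.33 to 0.92, limma adjusted p 0.573). Without mfn2-/- replicate 1 it was 0.03.

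Cdkn2c (ENSMUSG00000028551.14, chr4:109660876-109667189, minus strand), the gene of p18, was close to the limit of detection, with 0, 9.33, 32.7 and 24.0 normalized reads in wild-type and 8.0, 9.48, 13.3 and 0 in mfn2-/- libraries. A difference was not detectable at this depth (log2 change -0.67, SE 1.41, limma adjusted p 0.810), and the sign turned to 0.19 without mfn2-/- replicate 4. Per kb, Cdkn1c stood at 829.5 normalized reads in wild-type ASCs and 254 in mfn2-/- ASCs, Cdkn1b at 68.7 and 89.8, and Cdkn2c at 6.15 and 2.86. Cdkn1c therefore made up 90.3% ± 4.23 of the summed level of these inhibitors in wild-type and 70.9% ± 12.7 in mfn2-/- libraries, and Cdkn1b 9.14% ± 4.44 and 28.1% ± 12.1 (SD, n = 4).

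Spry1 (ENSMUSG00000037211.12, chr3:37639947-37644598, plus strand) gave 696, 703, 829.7 and 884 normalized reads in wild-type libraries and 549, 743, 413 and 236 in mfn2-/- libraries. Only mfn2-/- replicate 2 lay within the wild-type range. The means were 778 ± 93.6 and 485 ± 214, with a log2 change of -0.79 (SE 0.30, 95% interval -1.44 to -0.14) and a limma adjusted p of 0.118. The gene passed in 2 of 20 alternatives, with the class of library as a term of the fit (adjusted p 0.0481) and without mfn2-/- replicate 2 (-1.04, adjusted p 0.0499). Without mfn2-/- replicate 4 the change shrank to -0.49 (adjusted p 0.205), with library weights it was -0.43 (0.125), and edgeR gave -0.58 (0.321).

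The change of Ccnd1 between genotypes was also computed within each class of library. In libraries with Y-linked reads Ccnd1 was 5.25-fold lower in mfn2-/- ASCs, from a mean of 739 to 141 normalized reads (log2 change -2.39). In libraries without them the means were 283 and 329.7 (log2 change 0.25). The difference between these changes was -2.64 (SE 0.44, 95% interval -3.61 to -1.67), and the interaction of genotype and class in limma had an adjusted p of 0.0173 over all genes, of which 1.47% were called. Because the classes hold replicates 3 and 4 of wild-type but 1 and 2 of mfn2-/-, this contrast is the same as a difference between replicates 1 and 2 and replicates 3 and 4 that both genotypes share. Read that way, Ccnd1 was higher in replicates 3 and 4 of both, 2.61-fold in wild-type and 2.34-fold in mfn2-/-, and its log2 change between genotypes was alike in both pairs, -0.98 in replicates 1 and 2 and -1.17 in replicates 3 and 4. A genotype change that differs by class and a constant one beside a shift between pairs cannot be told apart here. With 2 libraries per genotype and class, leaving out 1 leaves a single library of that genotype and class, so only the sizes are given. These sizes do not show that the call would stand without any 1 library. Leaving out wild-type replicate 1, 2, 3 or 4 gave differences of -2.33, -2.95, -2.68 and -2.60. Without mfn2-/- replicate 1, 2, 3 or 4 they were -2.49, -2.79, -2.53 and -2.75. With all libraries edgeR gave -2.55 (adjusted p 0.0213).

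Ccnd1 was the 1 member called in this interaction. The interaction was negative for 7 of the 10 members, with a median of -1.65 against 0.14 over all genes, and its unadjusted p was under 0.05 for 3 members, as for 12.0% of all genes. For Cdk4 the log2 change was -1.76 with Y-linked reads and 0.22 without (interaction adjusted p 0.451), for Rb1 -0.92 and 0.57 (0.315), and for Cdkn1c -2.63 and -0.72 (0.168). Ccnd3 was lower in both classes, at -0.95 and -0.51 (0.745). Spry1 had the opposite order, -0.42 and -1.16, as did Ccnd2. Cdkn1b had 0.74 and -0.15 (0.475). None of these differences between classes passed the threshold in limma, and each is equally a mean shift of both genotypes between the replicate pairs. From replicates 1 and 2 to 3 and 4, Cdk4 shifted by 0.84 in wild-type and 1.14 in mfn2-/-. Rb1 (0.77 and 0.71) and Cdkn1c (1.34 and 0.57) also rose in both. The shift was not shared for Ccnd2 (0.72 and -1.38), Spry1 (0.29 and -1.03) or Ccnd3 (-0.10 and 0.54). For Cdkn1b it was -0.03 and -0.85.

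**Figure D4:**
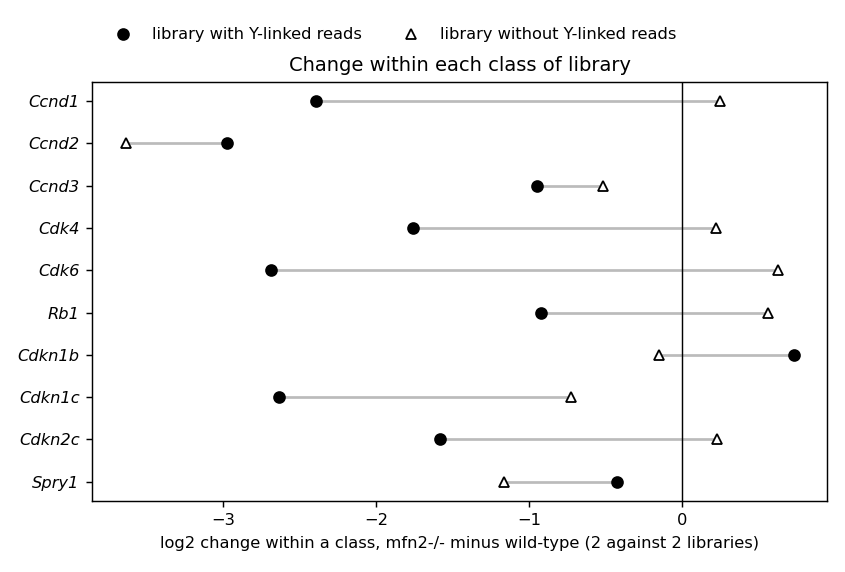
Log2 change of each G1 regulator, mfn2-/- minus wild-type, computed in libraries with Y-linked reads (filled circles) and without (open triangles), each from 2 libraries per genotype. The line between the points is longest for Cdk6, which is near its detection limit, and for Ccnd1 it spans -2.39 to 0.25.

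The genes downstream and upstream of the members were taken from 9 lists of 97 genes, 90 of which were tested. Of these 9 were called higher and 2 lower, or 10% and 2.22%, against 3.99% and 6.36% of all genes, and their median log2 change was 0.16 against -0.16. Among the 12 pocket protein and E2F genes 1 was called, the E2F dimerization partner Tfdp2, which rose from 453 ± 82.7 to 866 ± 194 normalized reads (log2 change 0.92, limma adjusted p 0.0198). The pocket protein Rbl2 (log2 change -0.13, adjusted p 0.869) and Tfdp1 (0.70, 0.632) were not called. None of 8 cyclin E and CDK2 genes was called in limma, edgeR or DESeq2, and 1 had an unadjusted limma p under 0.05, Cdk7. Log2 changes were 0.22 for Cdk2 (adjusted p 0.771) and -1.18 for Cdk7, the CDK-activating kinase (0.0945). The same tools called none of 10 genes of p27 and cyclin turnover (2 with an unadjusted limma p under 0.05, Cul1 and Fbxo31), with Cul1 at 0.45 (0.152) and Skp1a at 0.18 (0.752), and none of 6 genes of the MuvB complex (0 under 0.05), with Dyrk1a at 0.49 (0.331) and Rbbp4 at 0.04 (0.956).

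Among the other CDK inhibitors, 3 of 5 were tested and 1 was called, Cdkn1a, the gene of p21. It gave 234, 305, 100.4 and 129 normalized reads in wild-type libraries and 732, 731, 637 and 348 in mfn2-/- libraries. All mfn2-/- values exceeded all wild-type values, and Cdkn1a rose by 1.74 on the log2 scale (SE 0.37, adjusted p in limma 0.00920), where its family member Cdkn1c fell. The rise was 2.67 in libraries with Y-linked reads and 0.82 in the others, and the interaction was not called. The INK4 genes Cdkn2d (log2 change 0.81, adjusted p 0.789) and Cdkn2b (2.24, 0.259) were not called.

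Of 16 cycling genes 14 were tested and 2 were called, both higher. The replication helicase subunit Mcm4 rose from 301 ± 37.6 to 678 ± 188 normalized reads (log2 change 1.13, limma adjusted p 0.0128) and the polymerase clamp Pcna from 303 ± 88.1 to 644 ± 111 (1.13, 0.0185). Mki67, a marker of proliferating cells, was not called (log2 change -1.18, adjusted p 0.390) and gave 95.5, 149, 930.2 and 727 normalized reads in wild-type and 56.0, 56.1, 435 and 262 in mfn2-/- libraries. It followed the same order as Ccnd1, with log2 changes of -3.85 with and 1.49 without Y-linked reads (interaction -5.34, adjusted p 0.00163), or, by pair, of -1.08 in replicates 1 and 2 and -1.28 in replicates 3 and 4. Mcm7 was at 0.17 (adjusted p 0.784). Summed normalized reads of the list were 1515, 1293, 2555 and 2686 in wild-type and 2033, 1954, 3564 and 2747 in mfn2-/- libraries, and were thus lower in the same 4 libraries in which Ccnd1 was low within its genotype.

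**Figure D5:**
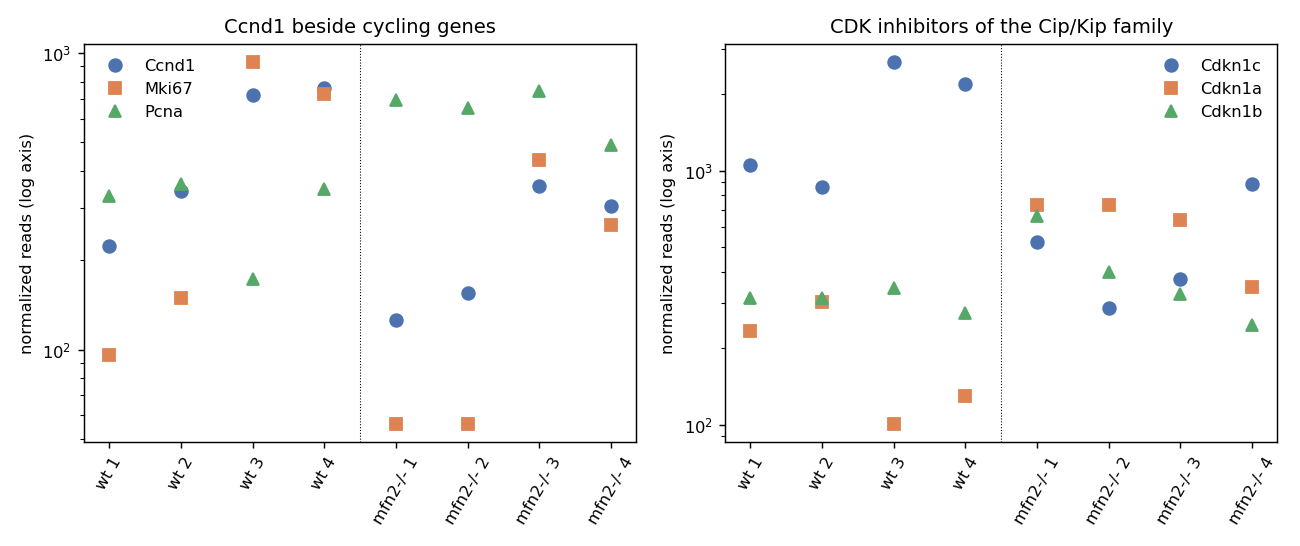
Normalized reads (log axes) in each of 4 wild-type (wt) and 4 mfn2-/- libraries, with Ccnd1 beside the cycling genes Mki67 and Pcna (left) and the Cip/Kip inhibitors Cdkn1c, Cdkn1a and Cdkn1b (right). Ccnd1 and Mki67 are higher in wt 3 and 4 and in mfn2-/- 3 and 4 than in the other libraries of their genotype, and each mfn2-/- value of Cdkn1a lies above its 4 wild-type values.

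Of 12 genes of the Sprouty family and of ERK feedback, 11 were tested and 1 was called. Spred1, a Sprouty-related inhibitor of RAS signalling, rose from 846 ± 228 to 2273 ± 281 normalized reads (log2 change 1.45, limma adjusted p 0.000583). The FGF receptors Fgfr1 (0.07, 0.856) and Fgfr4 (0.26, 0.459), which signal upstream of the Sprouty proteins, were not called. Of 10 mitogen-induced regulators of D-type cyclins 3 were called higher: Stat3 (log2 change 1.55, adjusted p 0.00133), Ets2 (1.87, 0.000167) and Fosl1 (2.47, 0.0139), all transcription factors downstream of cytokine or ERK signalling. Egr1 (-0.01, 0.989) and Jun (-0.27, 0.521), the most abundant that were not called, were at these values over all 8 libraries. For 3 genes of this list the interaction of genotype and class of library was called: Egr1, whose changes of 0.96 with and -0.98 without Y-linked reads had opposite signs (interaction 1.94, adjusted p 0.00163), Fos (1.23, 0.00436) and Stat3 (1.10, 0.0148). Each contrast is equally a shift between the replicate pairs. In replicates 1 and 2, then 3 and 4, the changes were 0.57 and -0.60 for Egr1, -0.49 and -1.12 for Fos, and 1.14 and 1.97 for Stat3.

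Of 16 genes of quiescent muscle stem cells 1 was called higher and 2 lower. The heparan sulphate proteoglycan Sdc4 rose from 4271 ± 1529 to 17473 ± 3953 normalized reads (log2 change 2.08, limma adjusted p 0.000317). Cd34, the antigen against which the cells were sorted, fell by 1.90 on the log2 scale (adjusted p 0.000242), and the collagen gene Col5a1 fell by 3.26 (1.5e-06). Fibroadipogenic cells and tenocytes, whose markers were lower in the same libraries, also express Col5a1. Dag1 (-0.69, 0.115) and Notch3 (0.06, 0.884) were not called. Dag1 was called in the interaction of genotype and class (-1.22, adjusted p 0.0190), with log2 changes of -1.30 with and -0.08 without Y-linked reads. By pair, its changes were -0.30 in replicates 1 and 2 and -1.07 in replicates 3 and 4, and the contrast is equally a shift between the pairs.

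The genes whose pattern over the 8 libraries was nearest to the called members were found among the 5584 genes that averaged 100 normalized reads or more, by Pearson r of log2 values. These correlations hold the difference between the genotypes, so a gene that differs between them tends to score high. For Ccnd2 they were Sulf2 (r = 0.994), an extracellular sulphatase that fell from 407 ± 103 to 7.74 ± 7.98 normalized reads, Pgcp (0.992) and Mylk (0.992), the myosin light chain kinase, which fell from 950 ± 148 to 335 ± 98.5. For Cdkn1c they were Ddb1 (0.960), a DNA damage-binding and ubiquitin ligase subunit whose own change was not called (log2 change -0.22, limma adjusted p 0.437), Fkbp14 (0.955) and Epb4.1l2 (0.949).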

How the data were processed

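The authors sequenced total RNA of sorted ASCs with a stranded low-input kit. The labels' processing notes name Trim Galore, HISAT2, featureCounts, DESeq2 and build mm9, without roles or versions, and the strand setting of counting is not given in the sources used here. The deposited values are a normalized signal per gene symbol: counts that the authors divided by 1 size factor per library, since 100.0% of values in each column were whole multiples of 1 step (tolerance 0.01). Whole reads were recovered from the steps. Groups and replicate numbers were taken from the sample titles. The test, limma 3.58.1 in R 4.3.3, took the log2 of value + 1 for genes averaging 10 or more and used an intensity trend and Benjamini-Hochberg adjustment at 0.05, two-sided. Exact permutation tests were two-sided over 70 arrangements, unadjusted, for 10 members. The interaction of genotype and class was fitted in limma over all genes. A gene at 3 reads or fewer was at the floor.

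The members and lists were chosen with earlier results of these data known. All members, the targeted gene, up to 6 called and the 2 most abundant uncalled genes of each list, and 3 nearest patterns per called member were named. Positions and exon lengths are those of GENCODE M21 (GRCm38), matched by symbol, and promoters those of RefSeq (6 of 10 members matched). Alternatives were pseudocounts of 0.1 and 10, no filter or a mean of at least 50, equal totals, quantile normalization, replicate block, class as a term, no trend, leaving out each library, library weights, and edgeR 4.0.16 and DESeq2 1.42.0 on recovered reads. Methods were tested on simulated data. Mki67, Cdkn1a and Myc values per library, the interactions of list genes, the split by replicate pair, and the leave-one-out and edgeR fits of the interaction, were chosen after the data had been seen. Amplified copies cannot be told from separate molecules.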

Additional observations from a re-analysis of the deposited data

Results flagged for a closer look

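The change of Ccnd1 between genotypes differed between the classes of library, by -2.64 on the log2 scale (limma interaction, adjusted p 0.0173): it was -2.39 in the libraries with Y-linked reads and 0.25 in those without, with 2 libraries per genotype in each. The same contrast is a shift between replicates 1 and 2 and replicates 3 and 4 shared by both genotypes, within which the change was -0.98 and -1.17, so that a constant change of Ccnd1 beside such a shift cannot be told apart from one that differs by class. Of 22 groups of 4 libraries examined for a single library far from the rest, 0 had one, where chance alone gives about 1.1. A split into 2 low and 2 high libraries, as for Ccnd1, cannot be flagged in this way. With 4 values per group, the check does not show that no library was aberrant.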

How the results depend on the processing

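Of the 10 members, the direction of 7 held under every alternative fitted. It reversed for Cdk6 without mfn2-/- replicate 1 (0.23) and with edgeR (0.0305), for Rb1 without wild-type replicate 3 (0.02) or mfn2-/- replicate 1 (0.0485), and for Cdkn2c without mfn2-/- replicate 4 (0.19). Leaving out each library, their log2 changes ran from -1.88 to 0.23, -0.41 to 0.0485 and -1.76 to 0.19. Against 1217 genes, 2 members and 11 pathway genes called, the fit without intensity trend called 633, 1 and 6, and library weights, which ranged from 0.167 to 3.75, called 3037, 5 and 30. Leaving out each library gave 671 to 1331 genes, 1 to 3 members and 10 to 14 pathway genes. The interaction called 1 member, 2 with quantile normalization and 0 to 2 with each library left out, and the Ccnd1 difference ran from -2.95 to -2.33. Higher genes were 38.5% of calls, and 17.9% without the trend. The cause was not tested. The median change of all genes shifted by 0.29 with quantile normalization, 0.14 with a mean of at least 50, 0.13 without mfn2-/- replicate 4 and 0.11 with edgeR. edgeR called 1158 genes and DESeq2 1738, with Ccnd2 and Cdkn1c in both. Over all genes, same-numbered libraries of the groups did not deviate together (r -0.111 to 0.0383). Correlations between single libraries of unlike depth cannot settle whether the numbers pair them. Replicates 3 and 4 exceeded 1 and 2 in both genotypes for Ccnd1, by log2 changes of 1.41 in wild-type and 1.22 in mfn2-/-. With the replicate block 1043 genes and 3 members were called, the third being Ccnd1 (adjusted p 0.0256). Depth limits Cdk6 and Cdkn2c, which were at the floor in 1 and 2 libraries.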
